A study of Homo sapiens with 8 samples.

Results

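The genes described here are 7 matrix metalloproteinases (MMP1, MMP2, MMP3, MMP7, MMP9, MMP10 and MMP14) and 3 of their inhibitors (TIMP1, TIMP2 and TIMP3), 10 of the 58302 genes in the count table. They were taken by symbol from a given list of names. Of the 10, 9 passed the filter on low counts, as did 18973 genes in all; MMP7 did not. Matrix metalloproteinases are zinc-dependent enzymes that cut collagens, gelatin, laminin and other proteins of the matrix around cells. Most are secreted as inactive proenzymes and opened by other proteases, and the TIMPs are small secreted proteins that bind and block the active enzymes. The balance of both is studied in bladder cancer because invasion crosses a basement membrane and a collagen-rich muscle wall.

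The RNA came from xenograft tumours grown in mice from T24 cells, an established line of human bladder cancer. In 4 libraries the T24 cells carried enforced expression of DDR1, a receptor tyrosine kinase that collagen activates, and the other 4 are labelled control, with no further word on what the control cells carried. The sources used here give neither mouse strain, age nor time of growth. They do not say that each library came from its own animal either, so the p-values speak of the spread among 8 libraries, which may be technical. Totals ran from 13716285 to 22736649 expected counts in the controls and from 20789449 to 32271016 in the DDR1 libraries. DDR1 itself held 110 to 210 CPM (counts scaled to a common library total, with TMM factors) in the controls and 159, 343, 427 and 810 CPM in DDR1 replicates 1 to 4. The library labelled DDR1 replicate 1 therefore lies inside the control range for the gene it should overexpress. DDR1 was higher by 1.52 on the log2 scale (standard error 0.43), with an edgeR adjusted p of 0.9998. All DDR1 libraries name lane 8, 2 controls name lane 7 and 2 name none, so lane and group cannot be told apart. The library titles carry 3 prefixes among the controls and 2 in the DDR1 group. DDR1 replicate 1 has a prefix of its own, and the other DDR1 replicates share 1. The sources used here do not say what a prefix stands for. Of 14 urothelial and epithelial markers 10 passed the filter, with KRT5 the most abundant (2013 ± 912 CPM in controls, SD, n = 4). The uroplakins were low: UPK1B passed with at most 44 counts, and UPK1A, UPK2 and UPK3A did not pass, nor did KRT20.

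In these tumours 5 of the 10 genes were abundant: MMP1, MMP10, MMP14, TIMP1 and TIMP3 each lay above at least 97.3% of tested genes in mean CPM. No member passed edgeR's quasi-likelihood test of DDR1 against control after adjustment over all tested genes. The largest fitted differences were lower MMP9 (log2 fold change -2.50) and lower MMP10 (-1.57) in the DDR1 libraries, and the highest was TIMP3 (0.67). At an unadjusted p under 0.05 edgeR picked 1 of 9 tested members, MMP9, beside 4.17% of all genes (2.24% in the lower direction). At an adjusted p under 0.05 it called 0% of all genes, and DESeq2 called 0 members beside 0.0843% of all genes. The groups did not fully separate for any of the 9, beside 2.4% of all genes. Of the 9, 4 had a lower and 5 a higher fitted level in the DDR1 group with a median log2 fold change of 0.02, beside 50.5% lower and a median of -0.003 over all genes. In bulk tumour RNA, fewer cells that make a transcript and less of it per cell cannot be told apart.

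**Figure D1:**
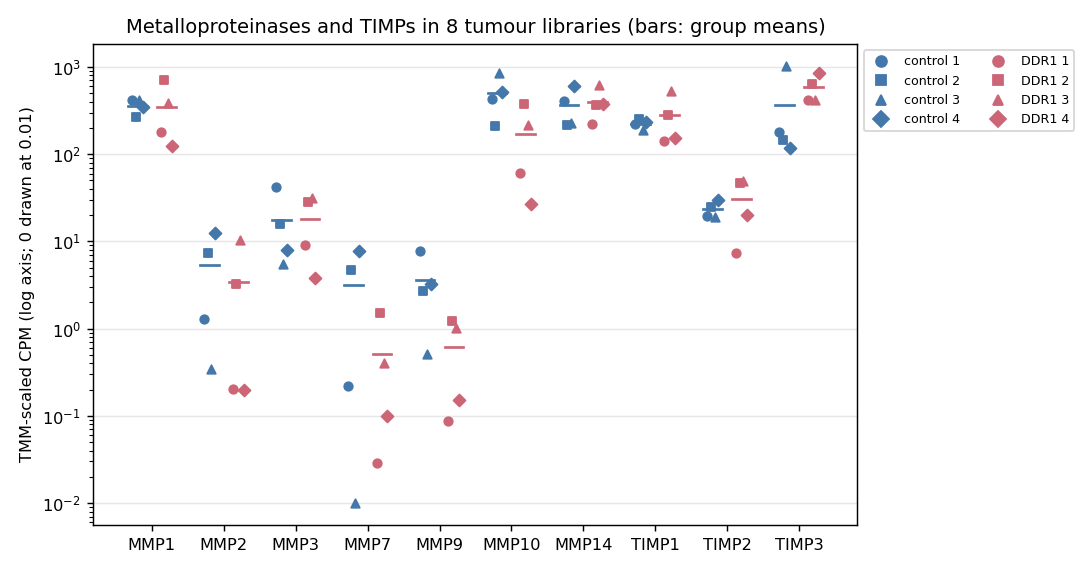
TMM-scaled CPM of the 10 genes in each of the 8 libraries (log axis, symbols are replicates, bars are group means, and a count of 0 is drawn at 0.01). MMP9 and MMP10 sit lower in most DDR1 libraries with overlap, TIMP3 is low in 3 of 4 controls, and MMP1, MMP14, TIMP1 and TIMP2 overlap broadly.

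The RefSeq promoter table (GRCh38.p14) held 5 of the 10 genes: MMP7, MMP10, MMP14, TIMP1 and TIMP3. The 250 bases before the start site of 3 of them are shown because they belong to MMP10, the abundant proteinase with the largest difference, to MMP7, of the same run of genes on chromosome 11, and to TIMP3, the inhibitor with the largest difference. Capitals mark 3 motifs, which do not overlap one another and were searched on both strands. The AP-1 site was spelled TGAGTCA, which is TGACTCA when read on the other strand. The TATA box was spelled TATAAA and the GC box GGGCGG, each with its reverse complement.
MMP10, chr11:102780629-102780878, minus strand: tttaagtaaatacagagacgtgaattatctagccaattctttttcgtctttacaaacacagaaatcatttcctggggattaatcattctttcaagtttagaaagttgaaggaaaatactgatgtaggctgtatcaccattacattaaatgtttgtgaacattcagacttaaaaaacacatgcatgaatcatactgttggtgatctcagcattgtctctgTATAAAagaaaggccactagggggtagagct
MMP7, chr11:102530748-102530997, minus strand: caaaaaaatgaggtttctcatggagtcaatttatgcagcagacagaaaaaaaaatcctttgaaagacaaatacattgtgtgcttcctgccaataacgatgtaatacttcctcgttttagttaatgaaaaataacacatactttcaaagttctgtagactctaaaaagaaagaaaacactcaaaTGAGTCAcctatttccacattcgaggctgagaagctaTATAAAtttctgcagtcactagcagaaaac
TIMP3, chr22:32801455-32801704, plus strand: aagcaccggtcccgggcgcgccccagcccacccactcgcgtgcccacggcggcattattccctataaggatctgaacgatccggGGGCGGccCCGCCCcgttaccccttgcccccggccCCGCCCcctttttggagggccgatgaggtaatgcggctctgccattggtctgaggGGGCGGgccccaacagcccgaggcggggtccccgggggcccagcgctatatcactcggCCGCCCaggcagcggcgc

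Both chromosome 11 windows are poor in G and C, at 34.4% for MMP10 and 33.6% for MMP7, while the TIMP3 window has 72.4% and the median of all windows is 58.0%. MMP10 holds 1 TATA box that begins 31 bases before the start and no AP-1 match in these letters. MMP7 holds 1 TATA box at 30 bases and 1 AP-1 match at 67 bases before the start. TIMP3 holds 5 GC boxes and neither of the other motifs, and TIMP1 and MMP14 hold 2 and 1 GC boxes and neither of the others. Of 35116 windows of the same length, 4.2% hold the AP-1 motif, 10.7% the TATA box and 42.6% the GC box. These matches are letters in a window and say nothing of which factors were bound in the tumours.

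MMP1 is interstitial collagenase, which cuts fibrillar collagen (ENSG00000196611, GRCh38 chromosome 11, 102789920 to 102798160, minus strand). It stood at 416, 264, 419 and 344 CPM in control replicates 1 to 4 and at 181, 714, 390 and 123 CPM in the libraries labelled DDR1 replicates 1 to 4. The highest and the lowest library were both in the DDR1 group, and the controls lay between them. The means were 361 ± 73.4 and 352 ± 268 CPM (SD, n = 4 each), with a log2 fold change of -0.04 and a standard error of 0.48. Its 95% interval ran from -1.11 to 1.04, so a doubling or a halving lies just inside it. The edgeR adjusted p was 0.9998, the value shared by all tested members. An exact two-sided permutation test gave p = 0.543.

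MMP3 and MMP10 are the stromelysins, enzymes of broad range that also open other proenzymes. MMP10 (ENSG00000166670, chromosome 11, 102770503 to 102780628, minus strand) stood at 432, 211, 846 and 519 CPM in the controls and at 61.3, 372, 218 and 27.1 CPM in the DDR1 libraries. All DDR1 libraries lay under 3 of the 4 controls, but DDR1 replicates 2 and 3 overlapped with control replicate 2. The means were 502 ± 263 and 169 ± 158 CPM (SD, n = 4 each), a log2 fold change of -1.57 with a standard error of 0.73. It did not pass: the unadjusted edgeR p was 0.0594 and the adjusted p 0.9998. The exact permutation test, two-sided, gave p = 0.0857, where 0.0286 is the smallest that 70 orderings allow. Leaving out both controls with no lane gave -0.93. Leaving out the library labelled DDR1 replicate 1 gave -1.29, and leaving out DDR1 replicate 2 gave -2.30. MMP3 (ENSG00000149968, chromosome 11, 102835801 to 102843803, minus strand) held 42.0, 15.6, 5.55 and 7.998 CPM in the controls and 9.17, 28.1, 31.1 and 3.85 CPM in the DDR1 libraries. The 2 groups covered nearly the same span, with a log2 fold change of 0.02 and a standard error of 0.74 (exact two-sided permutation p = 1). The 95% interval of that difference, from -1.65 to 1.69, is too wide to call the groups alike.

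MMP7, matrilysin, is a small secreted proteinase of epithelia (ENSG00000137673, chromosome 11, 102520508 to 102530753, minus strand). It had 4, 111, 0 and 101 counts in the controls and 1, 48, 10 and 2 in the DDR1 libraries, or 0.222, 4.64, 0 and 7.69 CPM and 0.0287, 1.52, 0.405 and 0.100 CPM. Only control replicates 2 and 4 and DDR1 replicate 2 held more than a trace, and the 0 in control replicate 3 allows up to 0.129 CPM (3 counts, counting error only). Fitted with no filter on low counts, it was lower by a fitted log2 value of -2.53 (standard error 1.18), and the edgeR adjusted p was 0.8634 over 42568 genes.

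MMP7, MMP10, MMP1 and MMP3 lie in 1 run of metalloproteinase genes on the minus strand of chromosome 11. From the low to the high coordinate the run is MMP7, MMP20, MMP27, MMP8, MMP10, MMP1, MMP3, MMP12 and MMP13. Levels along the run were strongly unequal: MMP10 and MMP1 averaged 336 and 356 CPM over the 8 libraries, MMP13 averaged 69.2 and MMP3 17.9 CPM. MMP20, MMP27, MMP8 and MMP12 never exceeded 9 counts in any library. MMP13, collagenase 3, held 78.6, 49.3, 60.6 and 94.98 CPM in the controls and 11.3, 112, 137 and 9.05 CPM in the DDR1 libraries. In the DDR1 group MMP1, MMP3, MMP10 and MMP13 were each higher in replicates 2 and 3 than in the libraries labelled 1 and 4. The controls showed no such shared order: MMP10 was highest in control replicate 3, where MMP3 was lowest. The libraries labelled DDR1 replicates 4 and 1, with the most and the least DDR1 transcript of their group, were the lowest and second lowest of all 8 for MMP1, MMP10 and MMP13. The fibroblast marker sum split the DDR1 libraries in the same way, at 13.1, 69.9, 69.2 and 13.1 CPM in replicates 1 to 4, and its part in these genes was not tested. The non-coding gene WTAPP1 lies over MMP10, MMP1 and MMP3 on the other strand, at a mean of 21.1 counts, and the protocol does not mention strand marking.

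**Figure D2:**
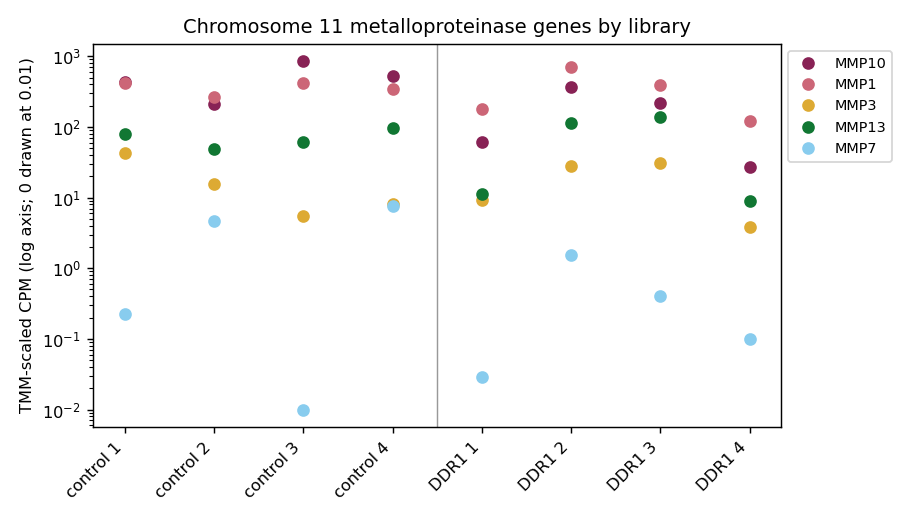
TMM-scaled CPM (log axis, 0 drawn at 0.01) of 5 metalloproteinase genes of chromosome 11 in each library, controls left and DDR1 libraries right of the line. MMP1, MMP3, MMP10 and MMP13 are all higher in DDR1 replicates 2 and 3 than in replicates 1 and 4, and MMP10 lies under MMP1 in every DDR1 library.

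The level of MMP10 relative to MMP1 was lower in every DDR1 library than in every control. MMP10 counts were 1.04, 0.800, 2.02 and 1.51 times those of MMP1 in the controls and 0.340, 0.521, 0.558 and 0.221 times in the DDR1 libraries. MMP10 was the lower of both in all 4 DDR1 libraries and also in control replicate 2. The mean log2 ratios of the groups differed by -1.71 on the log2 scale, between -1.93 and -1.45 with any 1 library left out. This ratio does not depend on library scaling. It was picked after the values were seen, so no test is given. Among all 36 pairs of the 9 tested members, 5 (13.9%) had ratios that did not overlap between groups. They were MMP1 with MMP10, MMP3 with MMP9, MMP9 with TIMP2, and MMP10 with TIMP2 and with TIMP3. The share over all pairs of tested genes was not computed, so these pairs have no background to be set against. The ratio of MMP10 to any other tested gene did not overlap for 1.88% of genes, and that of MMP1 for 0.169%.

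Across the 8 libraries 6 pairs of members were compared by correlation of log2 CPM, with exact permutation p-values adjusted over the 6. MMP1 and MMP10 had the highest Pearson r, 0.85 (exact permutation p = 0.00816, adjusted p = 0.0490), with a Spearman rho of 0.76 (exact permutation p = 0.0368, adjusted p = 0.138). This call was lost in 11 of 12 alternatives, all 4 other scalings and 7 of 8 fits with 1 library left out (adjusted exact permutation p up to 0.246). It rests on the libraries labelled DDR1 replicates 1 and 4, those farthest from the median of MMP1, since r was 0.28 without them. MMP2 and TIMP2 followed with r = 0.74 (exact permutation p = 0.0260, adjusted p = 0.0779) and rho = 0.74 (exact permutation p = 0.0458, adjusted p = 0.138), and r was 0.62 without its 2 farthest libraries. MMP1 with MMP3 (r = 0.65), MMP14 with TIMP2 (0.62), MMP9 with TIMP1 (0.45) and MMP3 with MMP10 (0.37) did not pass, with exact permutation adjusted p between 0.140 and 0.368.

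MMP2 and MMP9 are the gelatinases, which degrade denatured collagen and the type IV collagen of basement membranes. MMP9 (ENSG00000100985, chromosome 20, 46008908 to 46016561, plus strand) stood at 7.81, 2.71, 0.517 and 3.28 CPM in the controls and at 0.0862, 1.23, 1.01 and 0.150 CPM in the DDR1 libraries. All DDR1 libraries were below control replicates 1, 2 and 4, while control replicate 3 lay inside the DDR1 range. The level is low: the counts were 141, 65, 12 and 43 against 3, 39, 25 and 3. The means were 3.58 ± 3.06 and 0.620 ± 0.588 CPM (SD, n = 4 each), a log2 fold change of -2.50 with a standard error of 0.93. The edgeR p of MMP9 was 0.0232 before and 0.9998 after adjustment, and p = 0.0857 in the exact permutation test (two-sided). DESeq2 gave an adjusted p of 0.453. The fitted difference was -1.77 without control replicate 1, -1.54 without both controls of lane 7 and -2.13 without the library labelled DDR1 replicate 1.

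MMP9 is also made by neutrophils and macrophages, and host cells of these types can be present in a xenograft. Of 8 neutrophil markers 3 were tested, and all 8 together summed to 5.56 to 139 CPM in controls and to 1.45 to 249 CPM with DDR1. S100A9 and S100A8, which epithelial cells also express, were the most abundant. CSF3R reached 54 counts in a library, CXCR2 45, FCGR3B 11, CEACAM8 4, and MPO and ELANE 2 each. Of 10 macrophage markers 4 were tested, and the 10 summed to 17.4 to 39.8 CPM in controls and to between 25.4 and 49.1 CPM with DDR1. CD68 led them, CD14 had 29 to 143 counts, ADGRE1 0 to 74 and CSF1R 6 to 20. The other 6 had at most 11 counts (ITGAM), among them the pan-leukocyte gene PTPRC with at most 4. The part of these cells in the MMP9 values was not tested. The endothelial list of 8 genes summed to 10.98 to 59.6 CPM in controls and to 10.8 to 82.3 CPM with DDR1, with CDH5 the most abundant. The values describe reads that align to human genes, and the sources used here do not say whether mouse reads were removed.

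MMP2 (ENSG00000087245, chromosome 16, 55389700 to 55506691, plus strand) split the libraries across both groups. It held 1.27, 7.43, 0.344 and 12.6 CPM in the controls and 0.201, 3.23, 10.2 and 0.20 CPM in the DDR1 libraries, a 63.2-fold span. Control replicate 3 and the libraries labelled DDR1 replicates 1 and 4 were the lowest, and control replicate 1 came next. The means were 5.42 ± 5.75 and 3.47 ± 4.73 CPM (SD, n = 4 each), and the fitted log2 difference was -0.64 (standard error 1.27). The sign turned to 0.19 without control replicate 4. MMP16, a membrane-anchored relative, was lowest in the same 3 libraries at 1.12, 1.72 and 1.40 CPM, against 14.3 to 44.8 CPM in the other 5. Fibroblasts are a usual source of MMP2 in tissue. The 10 fibroblast markers summed to 18.5 CPM in control replicate 3 and 13.1 CPM in each of the libraries labelled DDR1 replicates 1 and 4. They summed to 46.6 to 123 CPM in the other 5 libraries. Control replicate 1 did not follow the order of MMP2: at 1.27 CPM of MMP2 it had a marker sum of 104 CPM and the highest MMP16. Of the 10, 6 were tested: THY1, which was the most abundant, PDGFRA, COL1A1, COL3A1, PDGFRB and FAP. The other 4 were low, with at most 63 counts for POSTN, 23 for COL1A2, 10 for DCN and 7 for LUM. The part of these markers in the MMP2 values was not tested, and THY1 itself held 34.8 ± 23.9 CPM in controls and 9.14 ± 6.03 with DDR1 (SD, n = 4).

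MMP14 is a membrane-bound collagenase that activates the MMP2 proenzyme on the cell surface together with TIMP2 (ENSG00000157227, chromosome 14, 22836557 to 22849027, plus strand). It stood at 412, 216, 227 and 606 CPM in the controls and at 224, 367, 616 and 372 CPM in the DDR1 libraries. The 2 groups covered almost the same range, and this was the steadiest proteinase of the 7, with a 2.86-fold span over all libraries. The fitted log2 difference was 0.11 (standard error 0.39), with a 95% interval from -0.77 to 0.99 and p = 0.8286 in the exact two-sided permutation test.

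The 3 inhibitors differed from one another in where they were high. TIMP1 (ENSG00000102265, chromosome X, 47582313 to 47586789, plus strand) binds most secreted metalloproteinases and is known for holding the MMP9 proenzyme. It stood at 223, 255, 187 and 233 CPM in the controls and at 141, 281, 537 and 154 CPM in the DDR1 libraries, so the controls sat inside the DDR1 range. For TIMP1 the fitted log2 difference was 0.31 (standard error 0.39), and it ran from -0.22 without DDR1 replicate 3 to 0.53 without the library labelled DDR1 replicate 1. TIMP2 (ENSG00000035862, chromosome 17, 78852977 to 78925387, minus strand) held 19.3, 25.1, 19.2 and 29.5 CPM in the controls and 7.44, 46.6, 49.5 and 19.9 CPM in the DDR1 libraries. DDR1 replicates 2 and 3 were above every control and the library labelled DDR1 replicate 1 below. The fitted log2 difference of TIMP2 was 0.41 (standard error 0.49), 0.73 without that library (edgeR adjusted p = 0.937) and 0.088 without DDR1 replicate 3. In DDR1 replicate 3, which held the most TIMP1 and TIMP2, MMP14 was also at its highest.

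TIMP3, which stays bound to the matrix, also blocks ADAM17 and aggrecanases (ENSG00000100234, chromosome 22, 32801701 to 32863043, plus strand). It stood at 177, 146, 1029 and 118 CPM in the controls and at 420, 637, 415 and 863 CPM in the DDR1 libraries. In 3 of the 4 controls TIMP3 was below every DDR1 library, while control replicate 3 was above them all. For TIMP3 the fitted log2 difference was 0.67, as large as its standard error of 0.67 (unadjusted edgeR p = 0.343, exact two-sided permutation p = 0.171). Without control replicate 3 it was 1.99, with an unadjusted p of 0.000189 and an edgeR adjusted p of 0.616 over all genes. With any other library left out alone it lay between 0.40 and 0.83, so the 1.99 depends on dropping the control that goes the other way. It was 0.07 without both controls of lane 7 and 0.80 without the library labelled DDR1 replicate 1. SYN3 and SYN1 lie over TIMP3 and TIMP1 on the other strand, at means of 15.4 and 6.38 counts, and CEP295NL over TIMP2 on the same strand at 7.5 counts. No label sets control replicate 3 apart other than its missing lane and a title prefix it shares with control replicate 4.

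**Figure D3:**
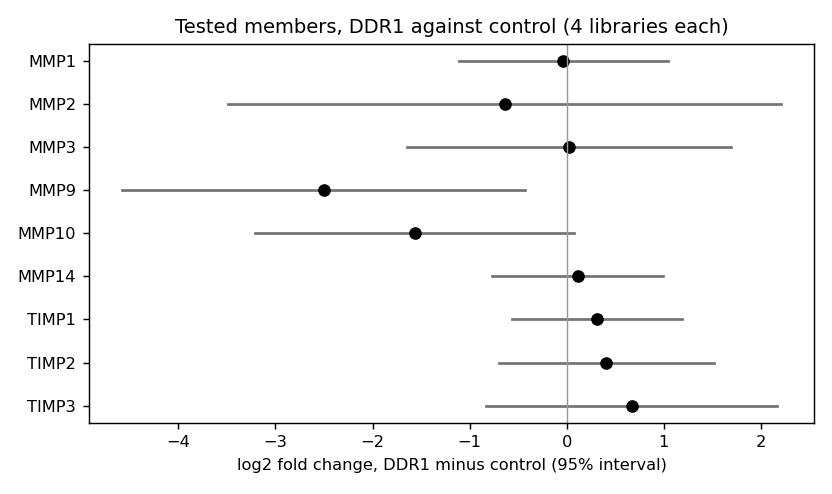
Fitted log2 fold change, DDR1 minus control, of the 9 tested members (points) with the 95% interval from edgeR's quasi-likelihood fit (lines). The interval of MMP9 leaves out 0 before adjustment, that of MMP10 just includes it at 0.08, and the other 7 span 0.

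To set genes side by side, CPM was divided by the exon length of each gene in kb. On this scale the mean over 8 libraries was 191 ± 153 CPM per kb for MMP10, 181 ± 92.2 for MMP1, 163 ± 81.1 for TIMP1, 103 ± 74.1 for TIMP3 and 85.1 ± 36.2 for MMP14 (SD, n = 8). MMP3 followed at 8.76 ± 6.88 and TIMP2 at 4.81 ± 2.56 CPM per kb. MMP2, MMP9 and MMP7 were lowest, at 0.901 ± 1.01, 0.899 ± 1.11 and 0.786 ± 1.22. Neighbours in this order differed by less than their spread, except for the steps from MMP14 to MMP3 and from TIMP2 to MMP2. With the longest transcript as the length, TIMP1 came first at 230 ± 114, and MMP7 at 1.38 ± 2.15 came before MMP2 at 1.19 ± 1.33 and MMP9. MMP10 led the proteinases in the controls (285 ± 150 CPM per kb against 183 ± 37.3 for MMP1, SD, n = 4), and MMP1 in the DDR1 group (179 ± 136 against 96.4 ± 90.1).

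Summed over the 7 proteinases, the level per kb was 573, 314, 748 and 617 in the controls and 181, 672, 478 and 163 in the DDR1 libraries. Summed over the 3 TIMPs it was 187, 202, 348 and 182 in the controls and 184, 329, 447 and 291 in the DDR1 libraries. The proteinase sum was 3.07, 1.56, 2.15 and 3.38 times the inhibitor sum in the controls and 0.986, 2.04, 1.07 and 0.559 times in the DDR1 libraries. Control replicate 2 and DDR1 replicate 2 made the ranges overlap. MMP10 took 38.2% to 64.3% of the proteinase sum in the controls and 9.45% to 31.5% in the DDR1 group. TIMP3 took 14.1% to 20.6% of the inhibitor sum in control replicates 1, 2 and 4, 64.2% in control replicate 3, and 20.2% to 64.4% in the DDR1 group. These sums are of transcripts and give no measure of active enzyme, and a score over chosen genes gets no test here.

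**Figure D4:**
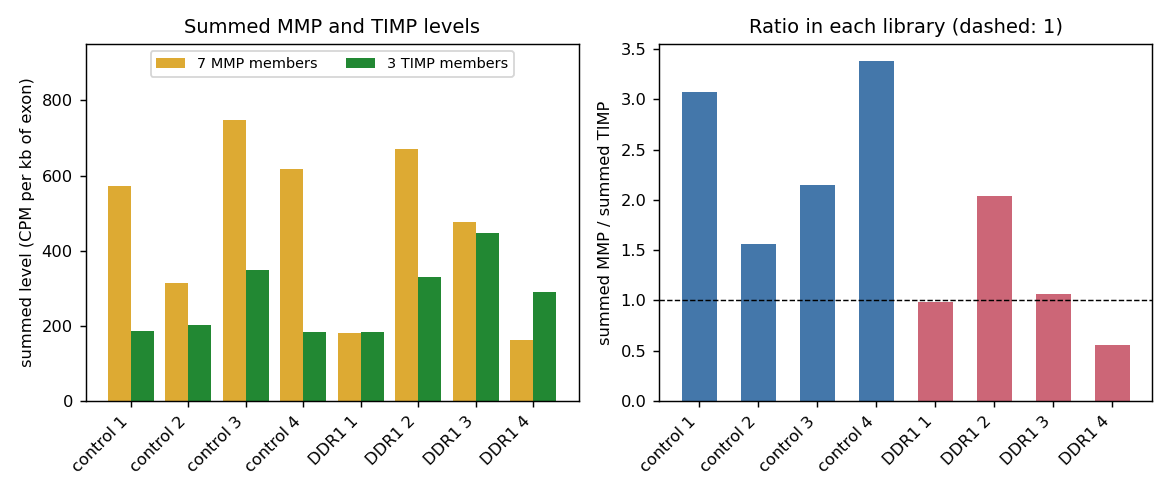
Left, summed level per kb of exon of the 7 proteinases and of the 3 TIMPs in each library; right, their ratio, with controls in blue and DDR1 libraries in red. The ratio is between 1.56 and 3.38 in the controls and between 0.559 and 2.04 in the DDR1 libraries.

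The members varied more between libraries of 1 group than most genes did. The SD of log2 CPM within a group had a median of 1.08 over the 9 tested members and of 0.390 over all tested genes. MMP2 was the extreme, at 2.43 and above 99.4% of genes, and MMP9 (1.53), MMP3 (1.35) and MMP10 (1.35) were each above 95%. The lowest were MMP14 and TIMP1, at 0.659 and 0.646. Of the related lists 3 were alike in this. Their medians were 0.883 for the other metalloproteinases and TIMPs, 0.903 for ADAM and ADAMTS proteases and 0.852 for activators and partners. The list of transcription factors and cytokines upstream of MMP genes was nearer to all genes, at 0.4485.

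Genes with the most similar pattern to a member were sought among 11893 others with a mean of at least 5 CPM, by Pearson r of log2 CPM over the 8 libraries. With so many candidates and 8 libraries a high r is found for almost any gene, so these are descriptions. MMP10 was most like TGFA, a ligand of the EGF receptor (r = 0.98), and PLAUR, the urokinase receptor (0.97). MMP1 was most like CNPY4 (0.93) and LBH (0.92), and MMP14 like GDPD5 (0.97) and P3H3, a protein of collagen modification (0.97). TIMP1 was most like ENDOD1 (0.97) and MTMR7 (0.97), TIMP2 like the receptor IGF1R (0.97) and RTN4 (0.97), and TIMP3 like DTD1 (0.96) and TNNT1 (0.95). MMP3 was most like PSMC2 (0.96) and RSC1A1 (0.96), but PSMC2 spanned only 64.7 to 80.4 CPM.

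The other genes of the system were read from lists chosen with earlier results of these data known, and no gene in them passed the edgeR test after adjustment. Of the list genes with the smallest p, DESeq2 called IL1B (adjusted p = 0.0495). Their counts stand beside 50.5% of all genes lower, and 4.17% with an unadjusted edgeR p under 0.05 (2.24% lower). Of 17 further genes, metalloproteinases and TIMP4, 8 were tested, 4 were lower and 4 higher, and 0 had an unadjusted p under 0.05. The smallest p belonged to MMP28, epilysin, at 9.06 ± 10.9 CPM in controls and 16.6 ± 12.7 CPM with DDR1 (SD, n = 4). It was followed by TIMP4 at 0.856 ± 0.242 and 1.20 ± 0.760 CPM and MMP11 at 0.858 ± 0.363 and 0.997 ± 0.202 CPM. Of 23 ADAM and ADAMTS proteases, 18 were tested and 11 (61.1%) were lower with a median log2 fold change of -0.11. ADAMTS9 held 8.33 ± 10.9 and 1.25 ± 0.754 CPM (log2 fold change -2.73), ADAM28 1.13 ± 0.981 and 6.28 ± 8.45 CPM (2.47), and ADAMTS12 3.88 ± 7.07 and 0.662 ± 0.817 CPM (-2.52). ADAMTS9 and ADAM28 had unadjusted edgeR p-values of 0.0318 and 0.0370.

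Plasmin, made by the urokinase system, is a known activator of MMP proenzymes. Among 23 activators, partners and regulators of the proteins, all tested, 10 were lower and 1 had an unadjusted p under 0.05, with a median of 0.01. That gene was PLAUR, with 36.4 ± 15.8 CPM in controls against 18.3 ± 9.40 CPM with DDR1 (SD, n = 4), a log2 fold change of -0.99. Urokinase itself, PLAU, held 408 ± 144 and 252 ± 170 CPM, and LRP1, a receptor that clears proteinases, 237 ± 116 and 382 ± 218 CPM. Of 30 transcription factors and cytokines known upstream of MMP genes, 29 were tested, 20 (69%) were lower and the median was -0.22, with 5 lower and 1 higher at an unadjusted p under 0.05. Interleukin 1 beta (IL1B) averaged 45.2 ± 21.2 CPM in controls against 16.9 ± 4.62 CPM with DDR1, and interleukin 1 alpha (IL1A) 28.98 ± 12.5 and 10.3 ± 7.37 CPM. The NF-kB subunit RELB held 12.9 ± 3.61 and 6.64 ± 1.28 CPM. The 1 higher gene was FOS, with 16.6 ± 6.90 CPM in controls and 32.0 ± 13.2 CPM with DDR1 (SD, n = 4). Its log2 fold change was 0.95, with an unadjusted edgeR p of 0.0246. The 4 lists had 8, 18, 23 and 29 tested genes. IL1B and RELB were the 2 among them whose groups did not overlap, both lower with DDR1. Both belong to the list of 29, and the other lists held no such gene, while the share over all genes was 2.4%. That list was chosen with earlier results of these data known, so its count is a description only.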

How the data were processed

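RNA sequencing of 8 tumour libraries was used, 4 control and 4 DDR1, grouped by the condition label; replicate numbers follow accession order and pair nothing. The submitters' processing notes name RSEM 1.3.1, STAR 2.7.5, Trim Galore 0.6.4, FastQC 0.11.9 and the GRCh38 build. The authors deposited expected counts per gene, which were rounded, and a TMM-normalized log2 table, used as it stands in 1 alternative. The sources used here state no settings, annotation release or treatment of mouse reads.

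Identifiers were matched to GENCODE 29 (58039 of 58302), which gave positions and exon lengths. Genes passing filterByExpr (minimum count 10) were fitted with edgeR 4.0.16 (TMM, quasi-likelihood, no covariate, R 4.3.3) over all 8 libraries. Benjamini-Hochberg adjustment covered all 18973 genes, with calls under 0.05. The fit was also run on simulated data with 100 genes changed 2-fold and 100 changed 4-fold. It called 9 of the 2-fold and 65 of the 4-fold changes, with 6 false calls, so most 2-fold changes would be missed. The changed genes were drawn at random from tested genes above a low level. The members varied more within a group than most genes did, so this recovery does not carry over to them. CPM are counts divided by the TMM-scaled library size and a prior count of 2 was added for log2 CPM. Intervals are 95%. Alternatives included DESeq2 1.42.0 and limma 3.58.1. The members and lists were chosen with earlier results of these data known. Besides the members and DDR1, named genes were the 3 with the smallest p of each list, the most abundant marker of each list of other cells, and the 2 most similar genes of each member above 5 CPM. MMP13, MMP16, FOS and further markers of other cells were named after their values were seen. No protein sequence was used here.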

Additional observations from a re-analysis of the deposited data

Results flagged for a closer look

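Groups of 4 libraries were searched for 1 library far from the others, where the gap to its neighbour, as a share of the range of the group, exceeds Dixon's 95% limit. The search covered 76 groups of CPM that were not log-transformed, and it marked 8. In each of the 8 the marked library was the highest of its group. The limit marks about 1 in 20 groups of independent, normally distributed values. CPM need not be so distributed, so the number that chance would mark here is not known. TIMP3 stood at 1029 CPM in control replicate 3, where the next control held 177 CPM. MMP28 and CD68 were also marked in control replicate 3, at 25.3 and 37.0 CPM against 4.49 and 14.2 CPM in the next control. ADAMTS12 stood at 14.5 CPM in control replicate 4 against 0.459 CPM, and IL1B at 76.9 CPM in control replicate 1 against 36.4 CPM. DDR1 replicate 2 stood apart for ADAM28 (18.9 CPM, next 2.95), S100A9 (171 CPM, next 22.3) and S100A8 (75.4 CPM, next 8.21).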

How the results depend on the processing

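The 19 alternatives changed the scaling, test, filter, library size or libraries used. In every one, 0 members were called. DESeq2 called 16 genes over all, IL1B among them, against 0 by edgeR, where 791 had an unadjusted p under 0.05. The fitted difference stayed negative in all alternatives that kept the gene for MMP9 (leaving out 1 library, -3.10 to -1.77) and MMP10 (-2.30 to -1.19), and positive for TIMP2 (0.09 to 0.73) and TIMP3 (0.40 to 1.99). Leaving out 1 library turned the sign for MMP1 (-0.64 to 0.26), MMP2 (-2.14 to 0.19), MMP3 (-0.38 to 0.90), MMP14 (-0.18 to 0.48), TIMP1 (-0.22 to 0.53), TP63 (-0.066 to 0.56), ADAMTS12 (-3.64 to 0.95), S100A9 (-1.34 to 1.77) and S100A8 (-1.82 to 2.08). With both controls that name no lane left out, the values were 0.0496 for MMP1, -0.67 for MMP3, 0.54 for ADAMTS12, -0.22 for S100A9 and -0.24 for S100A8. Without the controls of lane 7, MMP14 was -0.052. After summing libraries that share a title prefix, MMP3 was -0.42 and TIMP4 -0.042. S100A9 and S100A8 were -0.23 and -0.25 in limma-voom and -0.26 and -0.23 in limma-trend. The cause of these turns was not tested. The number of members lower, 4, ran from 3 to 7 with 1 library left out, and was 2 with at least 5 CPM in 4 libraries, where fewer members are tested. The level of TIMP2 per kb was 7.41 with the longest transcript as its length, against 4.81, and that of MMP7 was 1.38 against 0.786. The correlation of MMP1 and MMP10 missed the threshold with RLE scaling (r = 0.85, adjusted exact permutation p = 0.0528), with upper-quartile scaling (0.85, 0.05), in the deposited log2 table (0.85, 0.0524) and without DDR1, mitochondrial and small RNAs in the library size (0.85, 0.0531). With 1 library left out, r ran from 0.70 to 0.94 for MMP1 and MMP10 (adjusted exact permutation p 0.0202 to 0.246, missing the threshold in 7 of 8), from 0.68 to 0.79 for MMP2 and TIMP2 and from -0.082 to 0.69 for MMP3 and MMP10. No paired analysis was possible because no label links a control library to a DDR1 library. Depth limits MMP7, and MMP9 and MMP2 in the libraries with under 10 counts.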

Other observations

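MMP28, a proteinase of epithelia, was ordered over the libraries much as TIMP3 was. It stood at 4.49, 4.26, 25.3 and 2.21 CPM in the controls and at 10.7, 15.8, 5.38 and 34.5 CPM in the DDR1 libraries. As with TIMP3, control replicate 3 and DDR1 replicate 4 were the highest and control replicates 1, 2 and 4 the lowest. The genes lie on different chromosomes, and this likeness was noticed after the values were seen and not tested.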
